A study of Mus musculus with 4 samples.

Results

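The clustered protocadherins are cell surface adhesion proteins encoded by neighbouring gene clusters named alpha, beta and gamma. The genes were chosen by symbol, as every gene whose name or current name belongs to 1 of these clusters. The family had come to notice because several beta members were low on these same arrays, so the members were selected on the ratios described here. Those ratios are therefore a description and carry no test. All 58 genes of the family that RefSeq lists for GRCm38.p6 had at least 1 feature on the array, out of 19909 genes measured. They comprised 14 alpha, 22 beta and 22 gamma genes, read by 93 of the 38880 features. RefSeq places all 58 on chromosome 18, in the order alpha, beta, gamma.

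The study took cerebella of C57Bl/6 mice at postnatal day 0 and set those in which Smarca5 was conditionally deleted (cKO) against those of wild-type mice. Smarca5 encodes Snf2h, the ATPase of ISWI chromatin remodelling complexes. On each of 4 arrays cKO RNA was hybridised directly against wild-type RNA, with cKO in Cy5 on replicates 1 and 3 and in Cy3 on replicates 2 and 4. There were 3 RNA samples per genotype, since replicates 3 and 4 shared a cKO sample and replicates 1 and 4 shared a wild-type sample. The labels name neither the Cre driver nor the number of animals behind an RNA sample, so the spread between arrays may be in part technical. Every value is a log2 ratio of cKO over wild type, on a log base taken to be 2. A negative ratio means less signal in cKO.

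The direction of the ratios is likely but not stated with them. The labels place cKO in channel 2 of every array. Evenly spaced on the array were 48 features that read 1 dye far above the other, with median ratios of -7.03 and -6.39 where Cy5 carried the cKO sample, and 7.04 and 6.61 where Cy3 did. The Smarca5 feature was at -0.36, -1.16, -1.43 and -0.75 on replicates 1 to 4, whereas a feature with an older clone name of Smarca5 was above 0 on all 4 arrays, with a mean of 0.23. The mean of 6 Hox genes, markers of more caudal hindbrain, was 2.39 on replicate 1 and -0.13, -0.53 and -0.49 on replicates 2 to 4. Only ratios were used here, so neither the level of a protocadherin nor the presence of cerebellar markers could be checked. Across all genes, limma called 0 of 19909 (0%) at a Benjamini-Hochberg adjusted p under 0.05, and 310 genes had an unadjusted p under 0.05. None of the 58 protocadherins was among the calls.

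Each neuron transcribes a small set of alpha, beta and gamma genes, chosen largely at random, and the set gives the cell a surface identity. The proteins bind like partners on other cells and take part in the self-avoidance of neurites and in neuronal survival. In the alpha and gamma clusters each variable exon has its own promoter and is spliced to constant exons shared by the whole cluster, while beta genes have a single coding exon and no shared constant part. Promoter choice depends on CTCF and cohesin, which join promoters to distant enhancers. C-type genes, at the end of the alpha and gamma clusters, are used more widely across neurons than the alternate genes. It is not given here whether an alpha or gamma feature reads a variable exon or the shared exons. Beta genes resemble each other in sequence, so a feature may also read a relative.

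Beta genes had the lowest ratios of the 3 clusters. Their mean ratio was -0.71 ± 0.08 (SD of the mean over 4 arrays), against -0.18 ± 0.13 for alpha genes, 0.01 ± 0.30 for gamma genes and 0.00 ± 0.01 for all genes. On replicates 1 to 4 the beta mean was -0.69, -0.82, -0.62 and -0.70, so it was of similar size whichever dye carried cKO. The mean over 4 arrays was below 0 in 21 of 22 beta genes, and 77 of the 88 single gene values were below 0. Over all genes, 9969 of 19909 had a mean below 0, and 49.4% of single values were below 0. In 14 beta genes, or 63.6%, the ratio was below 0 on every array, a pattern found in 5.72% of all genes. Another 6 beta genes were below 0 on 3 arrays. Among alpha genes 4 of 14 and among gamma genes 0 of 22 were below 0 on every array. No beta or alpha gene was above 0 on all 4 arrays, and 1 gamma gene was, a pattern found in 5.92% of all genes. These counts come from the ratios that drew attention to the family, and nothing was read from them against the background.

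**Figure D1:**
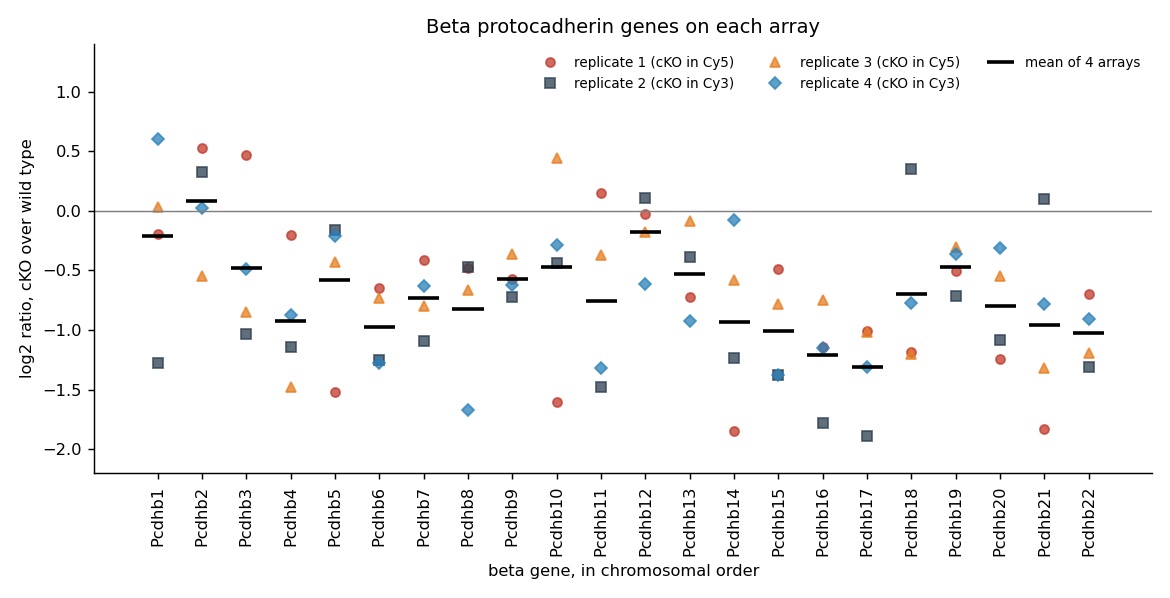
Log2 ratio of cKO over wild type (vertical axis) for the 22 beta genes in chromosomal order (horizontal axis), with 1 symbol per array and a bar at the mean of the 4 arrays. All bars except that of Pcdhb2 lie below 0, and 14 genes have all 4 symbols below 0.

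The lowest mean in the family belonged to Pcdhb17. It was at -1.01, -1.89, -1.02 and -1.31 on replicates 1 to 4, a mean of -1.31 ± 0.41 (SD, n = 4 arrays), or 2.48-fold lower in cKO. Every array lay at or below -1.01. Pcdhb16, its neighbour on the chromosome, was at -1.14, -1.78, -0.75 and -1.15, with a mean of -1.21 ± 0.43 (SD, n = 4). Pcdhb22, the last gene of the cluster, was at -0.70, -1.31, -1.19 and -0.91, with a mean of -1.03 ± 0.28 (SD, n = 4). In all 3 genes the SD was well under the size of the mean. Pcdhb15 was at -0.49, -1.38, -0.78 and -1.38, with a mean of -1.01 ± 0.45 (SD, n = 4). Like all beta genes, these encode proteins with extracellular cadherin repeats, which carry the binding specificity.

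Among the other genes below 0 on every array, Pcdhb6 was at -0.65, -1.25, -0.73 and -1.28, with a mean of -0.98 ± 0.33 (SD, n = 4). Its 2 features each lay below 0 on every array, with means of -0.87 and -1.08. Pcdhb14 was at -1.85, -1.23, -0.58 and -0.08, so its mean of -0.94 ± 0.77 (SD, n = 4) rested more on replicates 1 and 2 than on the others. Pcdhb4 was at -0.20, -1.14, -1.48 and -0.87, with a mean of -0.92 ± 0.54 (SD, n = 4). For Pcdhb8 the ratios were -0.48, -0.47, -0.66 and -1.67, so replicate 4 stood apart from the other 3, and the mean was -0.82 ± 0.57 (SD, n = 4), or -0.54 without it. Pcdhb20 read -1.24, -1.08, -0.55 and -0.31, with a mean of -0.80 ± 0.44 (SD, n = 4).

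The ratios of Pcdhb7 were -0.41, -1.09, -0.80 and -0.63, with a mean of -0.73 ± 0.29 (SD, n = 4). Pcdhb9 had the narrowest spread of the beta genes, at -0.57, -0.72, -0.36 and -0.62, with a mean of -0.57 ± 0.15 (SD, n = 4), or 1.48-fold lower in cKO. In Pcdhb5 the values were -1.52, -0.16, -0.43 and -0.21, and the mean of -0.58 was -0.27 without replicate 1. Thus 1 array set the size of the Pcdhb5 ratio. Pcdhb13 read -0.72, -0.39, -0.09 and -0.92, with a mean of -0.53 ± 0.37 (SD, n = 4), and its 2 features had means of -0.20 and -0.85. Pcdhb19 read -0.51, -0.71, -0.31 and -0.37, a mean of -0.47 ± 0.18 (SD, n = 4). The average was steadier than its features: 1 ran between -1.11 on replicate 4 and 0.05 on replicate 1, and the other between -1.06 on replicate 1 and 0.38 on replicate 4.

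The 6 beta genes below 0 on 3 arrays differed in which array was the exception. Replicate 1 was above 0 for Pcdhb3 (0.47, mean -0.47) and Pcdhb11 (0.15, mean -0.76). Replicate 2 was above 0 for Pcdhb12 (0.11, mean -0.18), Pcdhb18 (0.35, mean -0.70) and Pcdhb21 (0.10, mean -0.96). Replicate 3 was above 0 for Pcdhb10 (0.44, mean -0.47), whose mean was -0.10 without replicate 1, where it read -1.60. The exceptions were thus spread over 3 of the arrays. Single arrays weighed on these means: without replicate 1 that of Pcdhb3 was -0.79, and without replicate 4 that of Pcdhb12 was -0.03. Without replicate 2 the mean of Pcdhb18 was -1.05. Of the 22 beta genes, 10 had a mean within the lowest 1% of all genes measured. With the dye-flip columns (cKO in Cy3, replicates 2 and 4) turned in sign, 0 had. If the columns are ratios by genotype, turning leaves only the part of a ratio that followed the dye.

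Pcdhb1 and Pcdhb2, the first genes of the beta cluster, lay closer to 0 than most of the cluster. Pcdhb1 was at -0.19, -1.28, 0.03 and 0.60, a mean of -0.21 ± 0.79 (SD, n = 4). Its values lay on both sides of 0 and only replicate 2 was far below it. Pcdhb2 had the highest mean of the beta genes, at 0.53, 0.33, -0.55 and 0.03, a mean of 0.08 ± 0.47 (SD, n = 4). In both of its features replicate 3 was the lowest, at -0.55 and -0.54. Pcdhb1 is known for a promoter without the conserved sequence element found before most of these genes. The same holds for the C-type genes Pcdhac2, Pcdhgc4 and Pcdhgc5.

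As deposited, the ratios were lower toward the gamma side of the beta cluster. The mean was -0.06 over Pcdhb1 and Pcdhb2, -0.64 over the 11 genes from Pcdhb3 to Pcdhb13 and -0.93 over the 9 genes from Pcdhb14 to Pcdhb22, with the borders set after the values were seen. Spearman's rho between chromosomal order and mean ratio was -0.47 over the 22 genes. With the dye-flip columns turned, the 3 means were 0.02, 0.13 and -0.05 and rho was -0.24. Turned values give the part of a ratio that followed the dye, provided the columns are ratios by genotype. All 22 values came from the same 4 arrays, and 18 of the genes were read by a single feature. The rank order of beta genes was only weakly shared between arrays: rho over 22 genes ran from -0.07 to 0.42 over the 6 pairs of arrays, against -0.08 to 0.06 over all genes. It was 0.42 for replicates 3 and 4, which share a cKO sample, and -0.07 for replicates 1 and 4, which share a wild-type sample. Of the pairs with 1 dye orientation, replicates 2 and 4 had 0.42 and replicates 1 and 3 had 0.10. So the arrays resembled each other in the level of the beta genes as a group more than in which beta gene was lowest.

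**Figure D2:**
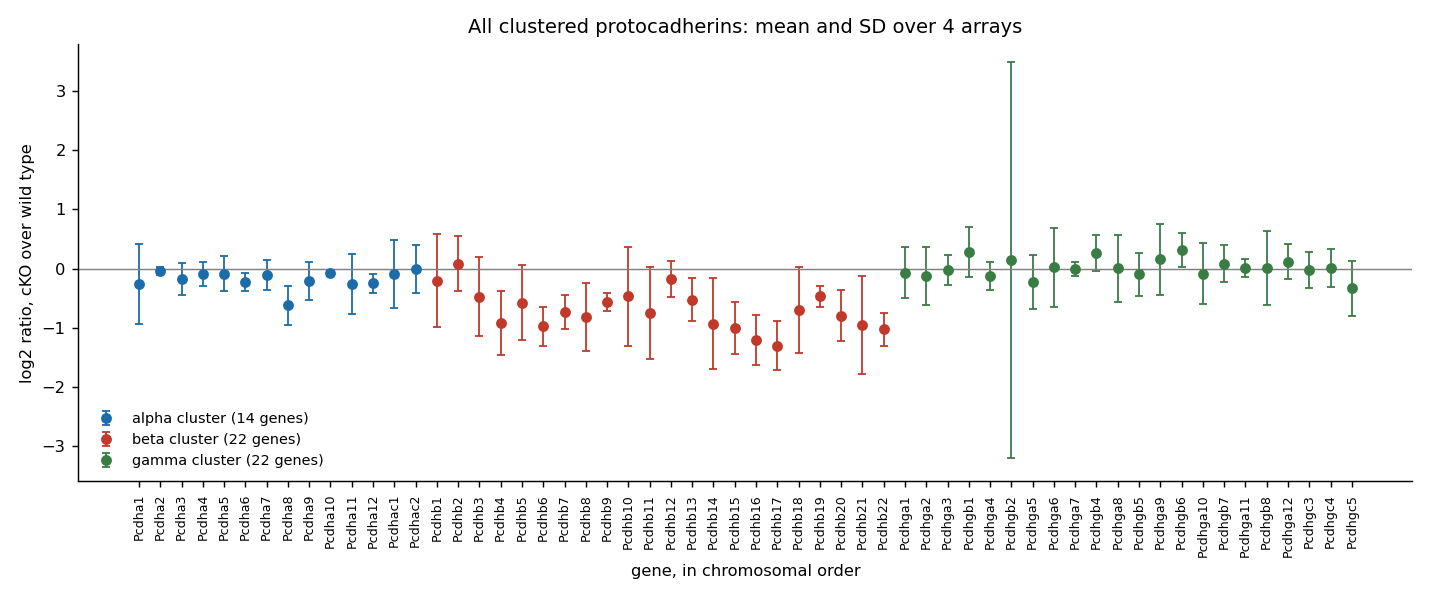
Mean log2 ratio of cKO over wild type (vertical axis) for all 58 genes in chromosomal order (horizontal axis), coloured by cluster, with error bars of 1 SD over the 4 hybridised arrays. The beta genes from Pcdhb3 to Pcdhb22 lie below 0, the alpha means lie between -0.63 and -0.01, and Pcdhgb2 has an SD of 3.35.

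Alpha genes had small negative ratios. All 14 had a mean below 0, from -0.63 to -0.01 with a median of -0.14. Of their 56 values on single arrays 41 were below 0, against 49.4% of the values of all genes. With the dye-flip columns turned, 10 of 14 had a mean below 0, and Pcdha3, Pcdha4, Pcdha9 and Pcdha10 lay above it. Over replicates 1 to 4 their mean was -0.30, -0.15, -0.26 and -0.01. The lowest was Pcdha8, at -0.90, -0.21, -0.86 and -0.53, with a mean of -0.63 ± 0.32 (SD, n = 4), or 1.54-fold lower in cKO. It was read by a single feature and was below 0 on every array. The other alpha genes below 0 on all 4 arrays were Pcdha12 at a mean of -0.25 ± 0.16, Pcdha6 at -0.23 ± 0.16 and Pcdha10 at -0.08 ± 0.04 (SD, n = 4 each). Without replicate 4, the array nearest 0, 8 alpha genes were below 0 on every remaining array, and 11.8% of all genes were. Leaving out replicates 1, 2 and 3 in turn gave 6, 4 and 4 alpha genes.

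Features of an alpha gene often disagreed. For Pcdha12, 1 feature lay between -0.62 and -0.37 on the 4 arrays and the other between -0.31 and 0.30. Both features of Pcdha6 gave different means, 0.00 and -0.45. The 3 features of Pcdha10 had means of -0.16, 0.105 and -0.18, and none of them was below 0 on every array. Its small SD was thus that of an average of features that differed. Of the remaining alternate alpha genes, the means were -0.27 for Pcdha11, -0.26 for Pcdha1, -0.22 for Pcdha9 and -0.18 for Pcdha3. They were -0.11 for Pcdha7, -0.09 for Pcdha4 and Pcdha5, and -0.04 for Pcdha2. Pcdha1 ran from -0.96 on replicate 1 to 0.58 on replicate 4, so its mean describes no single array. Pcdha2, the highest alternate alpha gene, read -0.10, -0.09, -0.03 and 0.05.

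Gamma genes lay around 0. Their means ran from -0.34 to 0.32, and 10 of 22 were below 0. Of the 88 single values 47 (53.4%) were below 0, near the 49.4% over all genes. By array the gamma mean was -0.36, 0.32, -0.09 and 0.18, so it was below 0 where cKO carried Cy5 and above 0 where it carried Cy3. Part of this swing came from Pcdhgb2, at -3.30, 3.78, -2.02 and 2.13. One of its features read -6.62, 7.45, -4.12 and 4.28, a sign that followed the dye as in the 48 evenly spaced features, while the other stayed between -0.02 and 0.10. Of the 30457 named features, 18 had a dye part larger than 3, the dye part being the mean after the columns with cKO in Cy3 are turned in sign. Without that feature, a choice made after seeing the data, Pcdhgb2 had a mean of 0.05 and the gamma mean was 0.01.

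The 12 gamma A genes had a mean of -0.03 ± 0.15 (SD over 4 arrays), with 7 of 12 below 0. The lowest was Pcdhga5, at -0.19, 0.24, -0.85 and -0.12, and the highest Pcdhga9, at 0.83, -0.48, -0.21 and 0.48. Both lay on either side of 0, depending on the array. The other gamma A means lay between -0.13 (Pcdhga4 and Pcdhga2) and 0.12 (Pcdhga12), with Pcdhga10 at -0.09, Pcdhga1 at -0.07 and Pcdhga3 at -0.03. Closest to 0 were Pcdhga7 at -0.01, Pcdhga8 and Pcdhga11 at 0.00 and Pcdhga6 at 0.02. Gamma A proteins are among those that reach the surface readily and bind like partners between cells, as beta and gamma B proteins do.

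The 7 gamma B genes had a mean of 0.14 ± 0.62 (SD over 4 arrays), and only Pcdhgb5 had a mean below 0. That mean ran between -0.10 and 0.39 with 1 array left out, was -0.47 with the dye-flip columns turned, and was 0.13 ± 0.21 without the Pcdhgb2 feature that followed the dye. Pcdhgb6 was the highest gene of the family and the 1 member above 0 on every array, at 0.24, 0.74, 0.22 and 0.06, with a mean of 0.32 ± 0.29 (SD, n = 4). Its 2 features differed, with means of 0.01 and 0.62, so the ratio came from 1 of them. Pcdhgb5, the lowest, was at -0.31, -0.33, 0.45 and -0.21, a mean of -0.10. The others were Pcdhgb1 at 0.28, Pcdhgb4 at 0.26 and Pcdhgb7 at 0.09, while Pcdhgb8, annotated as a transcribed pseudogene, was at 0.00.

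The 5 C-type genes came from the alpha and gamma clusters and had a mean of -0.09 ± 0.32 (SD over 4 arrays). Pcdhgc5 was the lowest, at -0.66, -0.80, -0.03 and 0.14, a mean of -0.34 ± 0.46 (SD, n = 4), with feature means of -0.06 and -0.61. Pcdhgc4, required for the survival of some neurons in mice, was the highest, at -0.41, 0.37, 0.04 and 0.07. Neither kept 1 sign over the arrays. Pcdhgc3 had a mean of -0.03. Pcdhac1 read -0.41, -0.45, -0.30 and 0.76, so replicate 4 stood apart. Pcdhac2 read -0.62, 0.15, 0.20 and 0.25, and there replicate 1 did.

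Many gamma features were very steady. Of 41 gamma features, 13 (31.7%) had an SD under 0.2 over the 4 arrays, as had 6 of 26 alpha features, 1 of 26 beta features and 3654 of the 30457 named features. The means of the 13 steady gamma features lay between -0.06 and 0.10. Steadiest were a feature of Pcdhgb6 (SD 0.03), 1 of Pcdhga3 (SD 0.04) and 1 of Pcdhgb1 (SD 0.04). In 12 of the 19 gamma genes with 2 features the steadier feature had an SD under 0.2, and the median SD was 0.14 for the steadier and 0.77 for the other. Over all 4467 genes with 2 features these medians were 0.31 and 0.59. Most gamma genes thus paired a feature close to 0 with one that scattered widely. The only beta feature with an SD under 0.2 was that of Pcdhb9.

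**Figure D3:**
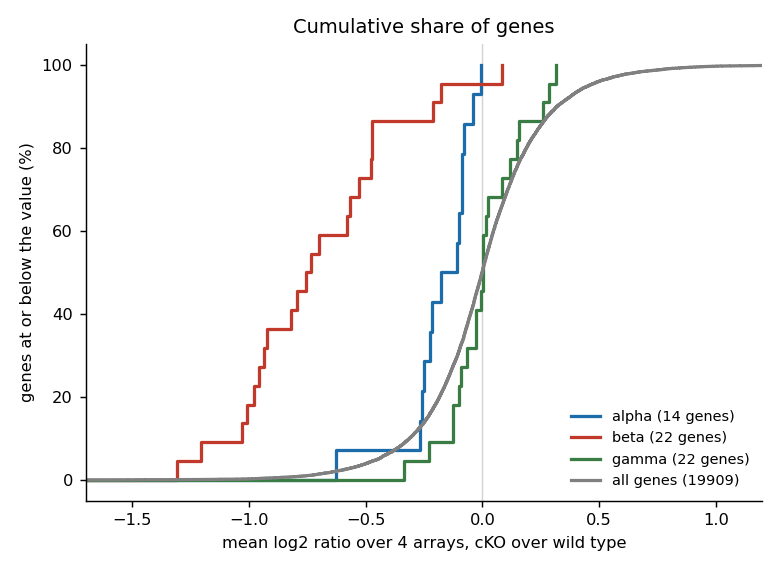
Share of genes (vertical axis, percent) with a mean log2 ratio at or below the value on the horizontal axis, for the alpha, beta and gamma genes and for all 19909 genes. The beta curve is shifted to lower ratios (median -0.74), the alpha curve lies just below 0 (median -0.14), and the gamma curve has the same median as all genes (0.00).

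The size of the ratio was set beside the dye part of each gene. In 21 of 22 beta genes (95.5%) the mean ratio was larger in size than the dye part, as in 9 of 14 alpha genes, 5 of 22 gamma genes and 47.6% of all genes. The beta cluster as a whole had a dye part of 0.05, against a mean ratio of -0.71. Pcdhb2 was the exception. The family was noticed for low beta ratios on these arrays, so the beta share follows in part from that choice. The largest dye parts among beta genes were 0.65 for Pcdhb11 and -0.62 for Pcdhb21. The dye part would be the genotype difference only if the deposited columns were ratios of 1 fixed dye over the other. The beta mean would then be 0.05. In such ratios the 48 evenly spaced features would keep 1 sign, but their medians changed sign with the dye.

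**Figure D4:**
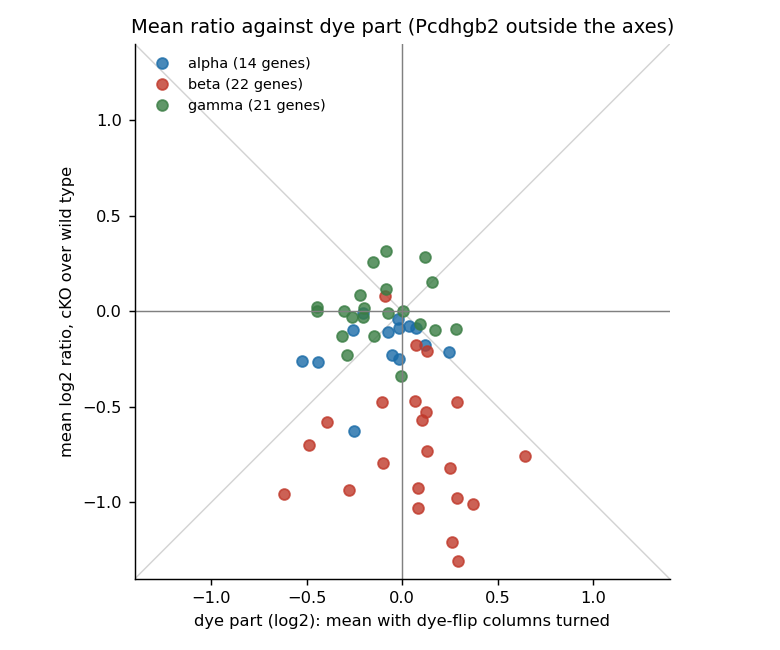
Mean log2 ratio of cKO over wild type (vertical axis) against the dye part (horizontal axis, log2) for 57 genes, coloured by cluster. Grey diagonals mark equal size, and Pcdhgb2, with a dye part of -2.81, lies outside the axes. All beta genes except Pcdhb2 lie below both diagonals.

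Genes next to the locus lay around 0. Of 25 protein-coding genes listed within or beside it (10 on each side), 21 were measured, and they had a median of -0.02. Of all genes, 5.72% were below and 5.92% above 0 on every array. Here 0 of 21 were below 0 and 2 above 0 on every array. One was Cd14, a receptor of innate immunity, with a mean of 0.38. The other was Taf7, a subunit of the general transcription factor TFIID that lies between the beta and gamma clusters and was at 0.32, 0.69, 0.05 and 0.74, with a mean of 0.45. Slc25a2, in the same gap, had a mean of 0.25. Zmat2, next to the alpha cluster, had the lowest mean of these genes at -0.90, but read 0.64 on replicate 1 and -1.07, -1.21 and -1.94 on the others.

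Genes known to regulate the locus also had medians near 0. Of 13 measured genes for CTCF, cohesin and its loaders, 0 were below and 0 above 0 on every array, and their median was 0.08. Over all genes these shares were 5.72% and 5.92%. Among 15 genes for silencing and DNA methylation, the median was 0.00 and 2 were below 0 on every array. They were Dnmt1, the maintenance DNA methyltransferase, with a mean of -0.29 ± 0.24, and Ehmt1, a histone H3 lysine methyltransferase, with -0.25 ± 0.12 (SD, n = 4 each). A list of 20 signalling partners, mostly kinases and actin regulators, also held the proteolysis genes Adam10 and Ncstn, the secreted protein Reln, Axin1 and Pdcd10. Its median was -0.03, with only Abi1 of 1 sign on all arrays (mean 0.10). The 15 measured nonclustered protocadherins and related Celsr genes had a median of 0.02. Pcdh15, a protein of hair cell tip links, was the 1 among them below 0 on every array, at -0.40, -0.41, -0.54 and -0.44.

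Markers of cell types were listed beside the family, because in whole cerebellum fewer cells of a type and less RNA per cell cannot be told apart. The 11 general neuronal markers had a median of -0.02, with 0 below 0 and 1, the neurofilament gene Nefm (mean 0.31), above 0 on every array. Of these 11 genes, 7 had a mean below 0. Purkinje cell markers had a median of -0.13 over 11 genes, with Itpr1 (mean -0.36) below 0 on every array, and radial and Bergmann glia markers -0.03 over 10 genes. A mean below 0 was found in 9 of the 11 Purkinje cell markers and 6 of the 10 glia markers. Markers of granule cell progenitors were lower: all 10 had a mean below 0, and the median was -0.36. Of the 10, 4 were below 0 on every array, against 5.72% of all genes. With the dye-flip columns turned, which gives the dye part if the columns are ratios by genotype, 6 had a mean below 0. Then 0 were below 0 on every array and the median was -0.01. As deposited, their mean by array was -0.65, -0.18, -0.27 and -0.64, lowest on replicates 1 and 4, where the beta mean was -0.69 and -0.70. On replicates 2 and 3 the beta mean was -0.82 and -0.62. Ccnd2, a D-type cyclin, had a mean of -0.95, and the transcription factors Nhlh1 and Pax6 had -0.87 and -0.68. Of 10 markers of differentiating granule neurons 3 were below 0 on every array, with a median of -0.09. They were the transcription factors Neurod1 (mean -1.12) and Neurod2 (-0.42) and the adhesion molecule Cntn2 (-0.30). In this list 7 of 10 genes had a mean below 0, and the highest mean was 0.37. Microglia markers had a median of 0.21 over 8 genes, of which 2 had a mean below 0. The complement genes C1qb (mean 0.42) and C1qc (0.29) were above 0 on every array, as were 5.92% of all genes. Medians were 0.13 over 4 choroid plexus markers, 0.10 over 2 red blood cell markers and 0.05 over 8 oligodendrocyte lineage markers, of which Sox10 (mean 0.33) was above 0 on every array. Of those 8 oligodendrocyte lineage markers, 3 had a mean below 0. Without replicate 1, where the Hox genes were high, the beta mean was -0.71. The part of these cell types, or of caudal hindbrain tissue, in the beta ratios was not tested.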

How the data were processed

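Gene expression was measured on 4 arrays of 2 colours. The values used here are those the authors deposited as 1 log ratio per feature and array, read as log2 although the log base is not stated. Intensities were not used here, so dim features were not removed. The authors' normalization is not given in the sources used here. The deposited column medians were 0.01, 0.00, 0.01 and -0.02. The number of arrays limits the precision.

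Each array was centred on its median. The platform annotation named 30457 features with 1 symbol and 8423 with none. Of 21476 symbols, 12795 were current in RefSeq and 8317 were replaced through a synonym. Features of a current name were averaged. Means and SDs are over the 4 arrays. Genes were fitted with limma 3.58.1 in R 4.3.3 (intercept alone, correlation 0.5 between arrays sharing an RNA sample, two-sided, Benjamini-Hochberg). The correlation of 0.5 was set, not estimated. Over all genes, Spearman's rho was 0.04 for replicates 1 and 4 and -0.07 for replicates 3 and 4, the pairs that share RNA. Simulated independent arrays were used to test the fit without that correlation, so the fit with it was not itself tested. No count model was used.

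Members and lists were chosen with earlier results of these data known. Values on every array are given for beta genes of 1 sign, for alpha and gamma genes of 1 sign with a mean of size 0.3 or more, and for each subfamily's highest and lowest gene. From each other list at most 3 genes of 1 sign, those with the largest means, are named. Genes beside the locus were taken from RefSeq order.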

Additional observations from a re-analysis of the deposited data

Results flagged for a closer look

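The highest or lowest array of a gene or list stood apart where its gap to the next one exceeded Dixon's critical value. Of 82 values examined, 6 stood apart, and chance gives about 1 in 20. The 4 members were Pcdhb8 (-1.67 on replicate 4), Pcdhac1 (0.76 on replicate 4), Pcdhac2 (-0.62 on replicate 1) and Pcdhgb5 (0.45 on replicate 3). The 2 others were marker lists on replicate 1, with a mean of 2.39 for the hindbrain behind the cerebellum and 0.55 for the oligodendrocyte lineage.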

How the results depend on the processing

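The beta mean of -0.71 lay between -0.73 and -0.67 when 1 array was left out, and was -0.71 with annotated symbols, medians over features, uncentred columns, arrays scaled to 1 spread, or weights for shared RNA samples, which amount to leaving out replicate 4. With dye-flip columns turned it was 0.0499. Then 0 beta, 1 alpha and 4 gamma genes were below 0 on every array, with 0 gamma genes above 0. The share of all genes was not counted with the columns turned. Turned values give the dye part, provided the columns are ratios by genotype. Turning changed the sign of 32 of the 58 members (4 alpha, 16 beta, 12 gamma). Among them were the members of 1 sign on all 4 arrays Pcdhb4 (0.0825), Pcdhb6 (0.29), Pcdhb7 (0.13), Pcdhb8 (0.25), Pcdhb9 (0.10), Pcdhb13 (0.13), Pcdhb15 (0.37), Pcdhb16 (0.26), Pcdhb17 (0.29), Pcdhb19 (0.0662), Pcdhb22 (0.0825), Pcdha10 (0.035) and Pcdhgb6 (-0.085). The alpha mean was -0.24 to -0.14 with 1 array left out and -0.10 when turned. With medians over features, 3 alpha genes rather than 4 were below 0 on every array, and the share of all genes was not counted. The gamma mean lay on both sides of 0, at -0.09 to 0.14 with 1 array left out and -0.24 when turned. With 1 array left out, 14 to 17 beta, 4 to 8 alpha and 0 to 3 gamma genes were below 0 on all others. The share of all genes was 11.4% to 11.8%. Members above 0 there numbered 0 to 1 for alpha, 0 to 1 for beta and 1 to 4 for gamma. The share of all genes above 0 was not counted. Fewer arrays make 1 sign easier to reach. limma called 0 genes in every fit run, with 995 at an unadjusted p under 0.05 as independent arrays, 621 with a dye term, and 139 to 934 with 1 array left out. The smallest adjusted p was 0.0889 in the limma fit of independent arrays. Signal over background was not known, so weak features could not be set apart.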
